A study of Mus musculus with 19 samples.

Results

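Microglia and complement genes were followed as a module of 39 named genes in striatal RNA from wild-type mice and from 3 kinds of Huntington's disease knock-in mice. A gene was kept when it had 10 or more counts in at least 4 of the 19 mice, and 38 of the 39 were kept. The 39th, Cst7, which encodes the protease inhibitor cystatin F, reached 10 counts in 1 mouse only and ranged from 0 to 10 counts. The same rule kept 18952 of the 54232 genes counted. The kept members were read in 4 roles: 11 homeostatic genes, 9 complement genes, 9 activated genes (10 with Cst7) and 9 general myeloid genes.

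The 4 genotypes on a C57/BL/6 background were sampled at 6 months. Wild-type (WT, n = 7) mice carried no edited allele. KI-FL mice (n = 4) carried the HD140Q knock-in allele, a mouse Htt gene with an expanded polyglutamine repeat that encodes full-length mutant huntingtin. KI-96 (n = 4) and KI-571 (n = 4) mice carried that same allele truncated by CRISPR/Cas9, so that only an N-terminal fragment of the mutant protein is made, shorter in KI-96 than in KI-571. The mutant protein was driven by the endogenous promoter and therefore was not restricted to one cell type, and the study examined heterozygous animals. RNA came from the whole dissected striatum, in which fewer microglia and less RNA per microglial cell cannot be told apart.

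Microglia are the resident macrophages of the brain. They depend on Csf1r signalling and express a set of surface receptors, such as P2ry12, Cx3cr1 and Tmem119, by which surveying (homeostatic) cells are recognised. Around amyloid or dying neurons many of these genes are known to decline while lysosomal, lipid-sensing and adhesion genes such as Trem2, Cst7, Itgax and Cd68 increase. Complement is a protein cascade: C1q starts the classical pathway, C4 and C3 are cleaved downstream, and receptors on microglia bind the C3 products. Microglia are the main source of C1q in the brain, whereas C4b and C3 are also made by astrocytes and other glia.

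Library depth ran from 12669809 to 26388542 gene counts per mouse. Htt, the targeted gene, was read at 168 to 195 CPM (counts scaled to a common library size) in WT, 143 to 240 in KI-96, 104 to 141 in KI-571 and 137 to 179 in KI-FL mice, with both alleles counted together. The striatal neuron genes Drd1 and Adora2a were present in every mouse, at 161 CPM or more and at 242 CPM or more. Cortical neuron genes were at a mean log2 CPM of 5.75 in WT replicate 3 and 4.67 in KI-571 replicate 2. In the other mice they were at 0.06 to 2.78, and the part of cortical tissue in the member levels was not tested. Of 10 monocyte and neutrophil markers none could be tested, and their counts did not exceed 15 in any mouse. Of 9 lymphocyte markers only Cd4 was tested, at 964 to 1842 counts per mouse, and Cd3e stayed at 0 to 3 counts. Among markers of border macrophages, Mrc1 had 0 to 71 counts, Lyve1 0 to 15 and Pf4 0 to 14. The 3 markers tested from that list summed to more, at 155 to 391 counts in WT and 196 to 306 in KI-96. Their sums were 183 to 360 in KI-571 and 109 to 260 in KI-FL. Choroid plexus genes, which mark ventricular tissue in the dissection, had unadjusted p under 0.05 for 6 of 6 genes in KI-571 against WT (median log2 fold change 3.69), and the red-cell genes did so for 5 of 5 (median 1.13), of which Alas2 and Hbb-bt passed an adjusted p of 0.05 in edgeR. By mouse, the mean log2 CPM of the choroid plexus genes was high in KI-571 replicates 2 and 4 (6.50 and 6.70) and in KI-FL replicate 1 (5.97). In the other mice it was 0.49 to 3.57.

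A pair of libraries stood apart in the member genes. In KI-96 replicate 3, 24.2% of reads fell outside annotated features, against 11.1% to 16.0% in the other 18 libraries. Short transcripts were low in it. Tyrobp, whose transcript is 0.564 kb, had 30 counts there and 172 to 390 in the other mice, whereas Cx3cr1 (3.75 kb) was at 75.3 CPM, as in KI-96 replicates 1 and 2 (74.1 and 74.0 CPM). Over the 38 members, the deviation of this mouse from the KI-96 mean of log2 CPM ran with log2 transcript length at r = 0.80, and over 15326 genes at r = 0.41, both given as descriptions. The median deviation was -1.14 for the 16 members under 2 kb and -0.38 for the 22 longer ones. The KI-96 mean includes replicate 3 itself. KI-96 replicates 1, 2 and 4 ran the other way, at r = -0.39, -0.44 and -0.72 over the members. KI-96 replicate 4 was at r = -0.34 over the 15326 genes, with medians of 0.56 for the shorter members and -0.003 for the longer ones. In KI-FL replicate 4, only 16384 genes had a count, against 23177 to 28700 in the others, and Cd14, Lyz2, Itgax and Cst7 were at 0.

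**Figure D1:**
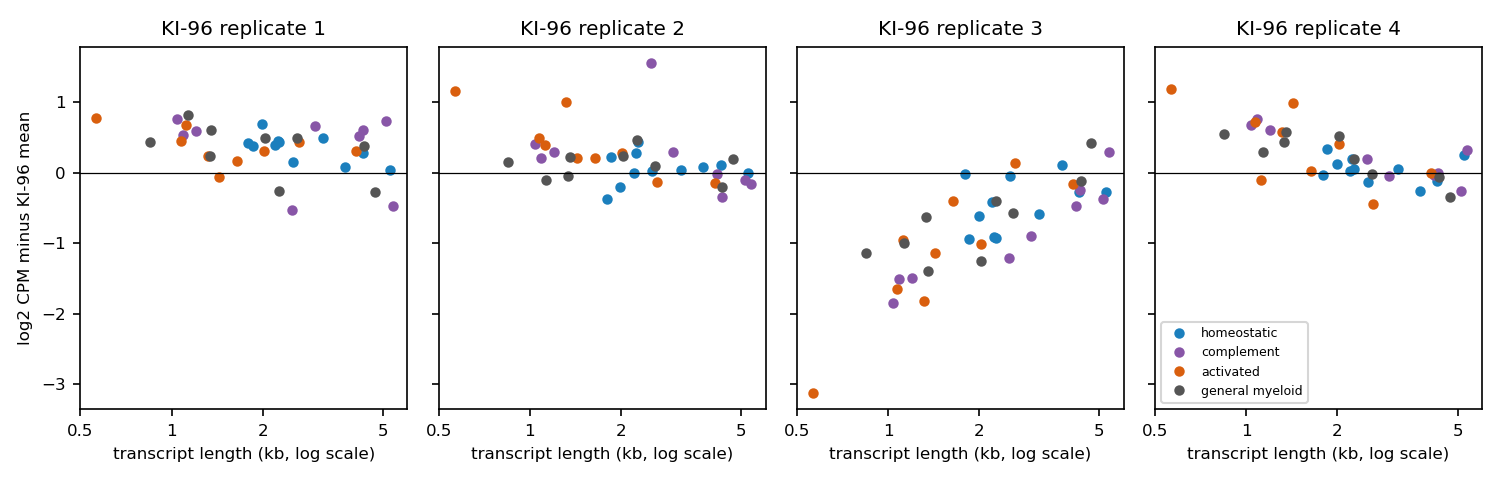
Deviation of each of the 38 members from the KI-96 mean (vertical axis, log2 CPM) against transcript length (horizontal axis, kb on a log scale) in the 4 KI-96 mice, coloured by role. In replicate 3 the shortest transcript, Tyrobp, lies lowest, with a median of -1.14 for members under 2 kb and -0.38 for longer ones.

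Per kilobase of transcript, the members spanned more than 2 orders of magnitude in WT striatum. The highest was Ctsd, the lysosomal protease cathepsin D, which neurons express as well, at 60.1 ± 3.21 CPM per kb (SD, n = 7). The C1q chain C1qa followed at 52.5 ± 6.39 and the lysosomal protease Ctss at 52.4 ± 6.39 CPM per kb, and these did not differ beyond their spread. C1qb (43.2 ± 1.92) and C1qc (36.7 ± 4.86) came next, then Csf1r, the receptor for the survival factors CSF1 and IL-34, at 25.9 ± 2.61 CPM per kb. Among homeostatic genes, Cx3cr1 (15.9 ± 2.70) and P2ry12 (15.6 ± 2.10) could not be separated by their spread. The lowest kept members were C3ar1 (0.483 ± 0.0644), C3 (0.451 ± 0.199), Itgax (0.277 ± 0.113) and C5ar1 (0.262 ± 0.0841), with Cst7 below them at 0.231 ± 0.104 CPM per kb. In this order of 39 genes, only 8 of the 38 steps between neighbours were larger than the larger SD of the pair.

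The promoters of 6 genes are shown for the members on which the results turn: P2ry12 and C3ar1, the 2 genes whose levels did not overlap with WT in a genotype, C1qb and C1qc, neighbours whose levels ran together across mice, Trem2, the central activated receptor, and Ctss, which holds both motifs searched. Each window runs from 250 bases before to 50 bases after the RefSeq transcription start and is printed 5′ to 3′ on the gene's strand (RefSeq, GRCm38.p6). They lie at chr3:59262936-59263235 (minus strand), chr6:122856108-122856407 (minus), chr4:136886151-136886450 (minus), chr4:136892865-136893164 (minus), chr17:48346151-48346450 (plus) and chr3:95526536-95526835 (plus). Capitals mark the letters GAGGAAG, a core of the sites bound by PU.1, or GAAANNGAA, a motif of the type bound by interferon regulatory factors, searched on both strands.
P2ry12: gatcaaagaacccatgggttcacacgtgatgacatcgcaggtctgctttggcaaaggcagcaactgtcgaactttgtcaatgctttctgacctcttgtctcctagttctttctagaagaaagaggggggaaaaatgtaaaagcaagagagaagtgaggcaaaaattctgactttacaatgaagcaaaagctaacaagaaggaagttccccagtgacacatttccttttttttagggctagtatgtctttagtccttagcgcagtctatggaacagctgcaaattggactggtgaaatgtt
C3ar1: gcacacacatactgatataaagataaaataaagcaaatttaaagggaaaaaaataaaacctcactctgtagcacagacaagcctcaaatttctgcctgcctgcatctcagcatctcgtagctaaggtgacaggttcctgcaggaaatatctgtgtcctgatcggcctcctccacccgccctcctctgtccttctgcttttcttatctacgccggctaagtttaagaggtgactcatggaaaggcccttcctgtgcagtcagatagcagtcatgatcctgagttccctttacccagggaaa
C1qb: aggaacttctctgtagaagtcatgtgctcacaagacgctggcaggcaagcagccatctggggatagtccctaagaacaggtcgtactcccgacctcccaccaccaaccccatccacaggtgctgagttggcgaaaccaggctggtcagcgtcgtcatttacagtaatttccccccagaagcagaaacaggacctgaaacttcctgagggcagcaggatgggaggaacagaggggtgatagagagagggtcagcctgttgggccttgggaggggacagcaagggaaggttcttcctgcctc
C1qc: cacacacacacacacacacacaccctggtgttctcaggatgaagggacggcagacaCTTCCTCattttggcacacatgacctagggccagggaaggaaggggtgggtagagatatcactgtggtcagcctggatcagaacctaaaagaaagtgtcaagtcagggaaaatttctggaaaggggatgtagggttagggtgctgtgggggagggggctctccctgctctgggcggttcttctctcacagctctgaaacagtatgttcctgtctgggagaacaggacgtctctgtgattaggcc
Trem2: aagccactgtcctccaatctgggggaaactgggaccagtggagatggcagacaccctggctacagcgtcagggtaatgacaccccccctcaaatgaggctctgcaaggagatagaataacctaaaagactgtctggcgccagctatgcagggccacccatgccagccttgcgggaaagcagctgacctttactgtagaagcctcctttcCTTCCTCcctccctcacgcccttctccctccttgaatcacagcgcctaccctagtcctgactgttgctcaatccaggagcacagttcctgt
Ctss: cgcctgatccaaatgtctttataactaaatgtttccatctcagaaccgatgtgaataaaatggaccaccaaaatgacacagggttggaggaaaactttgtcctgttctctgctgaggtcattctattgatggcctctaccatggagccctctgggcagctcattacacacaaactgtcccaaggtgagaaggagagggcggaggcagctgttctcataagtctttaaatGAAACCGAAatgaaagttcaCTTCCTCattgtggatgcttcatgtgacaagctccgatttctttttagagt

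PU.1, encoded by the member Spi1, and IRF8, encoded by the member Irf8, are transcription factors that microglia need to develop. The promoter table matched 28 of the 38 kept members, with 34 windows, since some genes have several start sites and overlapping windows. The letters GAGGAAG occurred in 11 of these 34 windows (32.4%), from 10 genes, and in 13.6% of all 32851 windows in the table. The 10 genes were Axl, C1qc, Ctss, Fcgr3, Fcrls, Itgam, Laptm5, P2ry13, Spp1 and Trem2, and so came from all 4 roles. The letters GAAANNGAA occurred in 5 windows (14.7%), of Aif1, C5ar1, Ctss, Ly86 and Spp1, and in 8.56% of all windows. In Ctss, a match to each motif lay within 21 bases of the start site, and in Trem2 the GAGGAAG match began 41 bases before it. Neither string was in the P2ry12, C3ar1 or C1qb windows. A match of letters is a description and not a bound site. Tmem119, Selplg, Cd14, C4b, Tyrobp, Csf1r, Spi1, Gpr34, Itgb2 and C1qa were not matched.

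The first question was whether any member differed between a knock-in genotype and WT. In none of the 3 genotypes did a member pass an adjusted p of 0.05 in the edgeR quasi-likelihood test. The count was 0 of 38 for KI-96, where 0.027% of all 18521 genes tested passed, 0 of 38 for KI-571 (0.0324% of all genes), 0 of 38 for KI-FL (0.194%) and 0 of 38 for all 12 knock-in mice together (0.054%). DESeq2 on the same genes called 0 members in KI-96, 0 in KI-571, 1 in KI-FL (P2ry12, lower) and 0 in the pooled comparison. The shares of all genes above are those of edgeR. The share that DESeq2 called is not given here, so its 1 call cannot be set against a background. At an unadjusted p under 0.05, edgeR gave 1 member in KI-96 (2.63% of 38, against 7.45% of all genes), 3 in KI-571 (7.89% against 7.72%), 7 in KI-FL (18.4% against 16.7%) and 5 in the pooled comparison (13.2% against 12.9%). These shares lay near or below those of all genes.

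**Figure D2:**
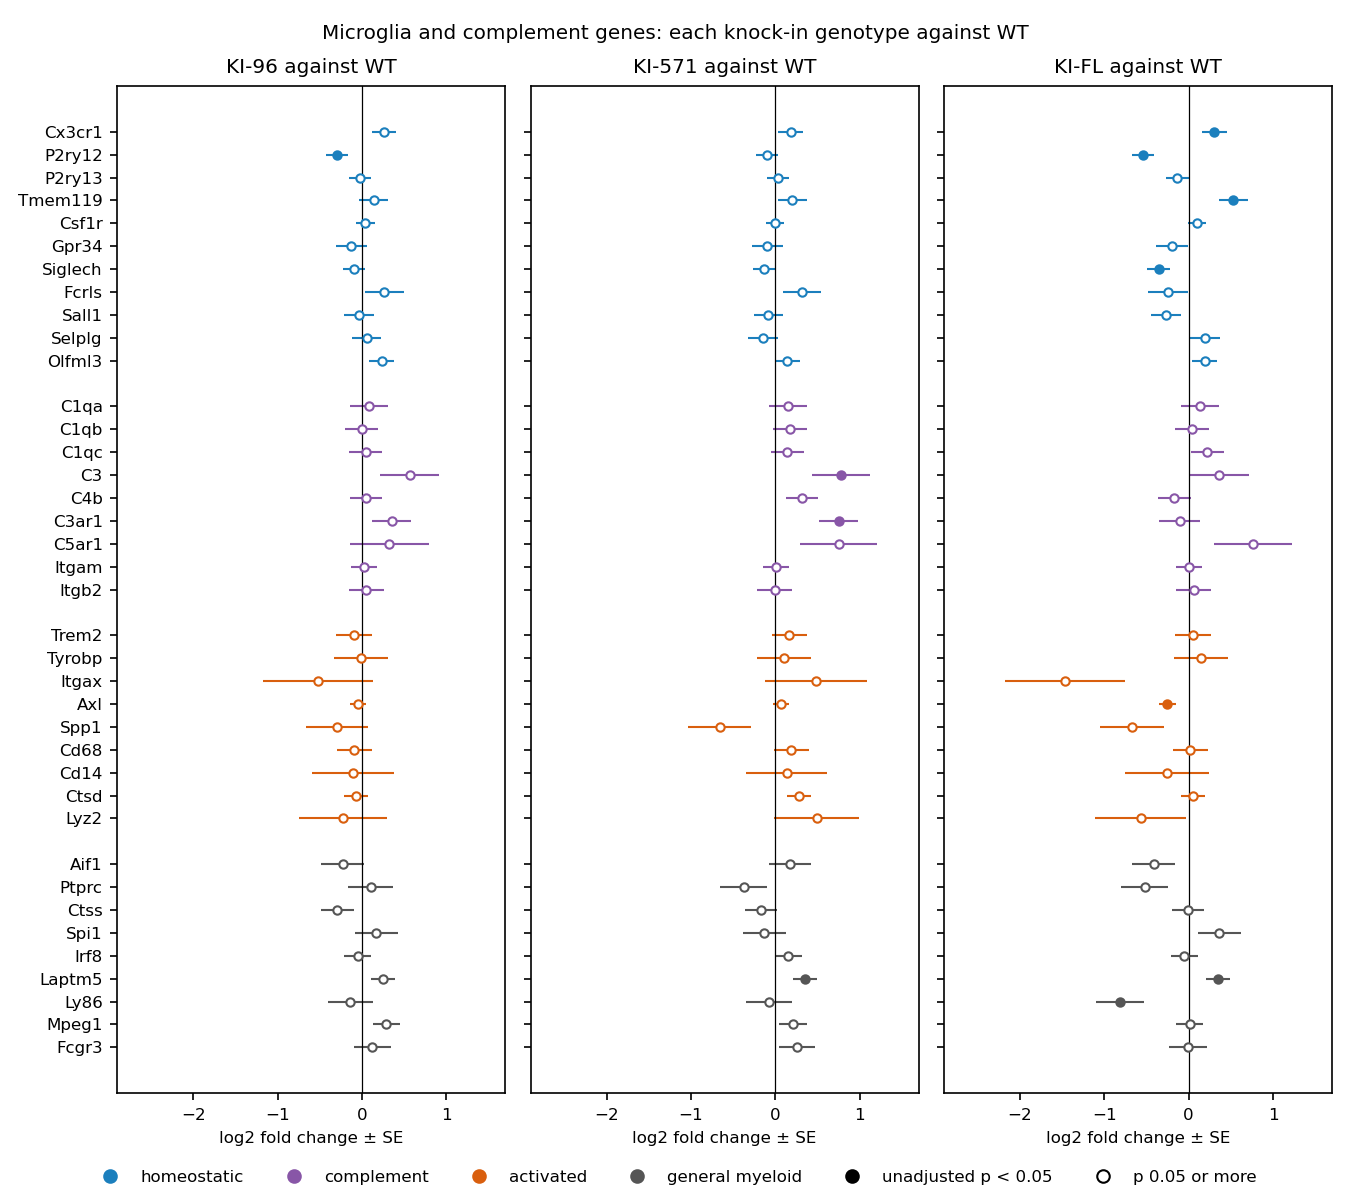
Log2 fold change against WT (horizontal axis, ± SE) of the 38 kept members in the 3 knock-in genotypes, 1 panel each, grouped and coloured by role, with filled points at an unadjusted p under 0.05. P2ry12 is left of 0 in the 3 panels, complement genes are mostly right of 0 in KI-571, and activated genes have the widest bars in KI-FL.

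Among the homeostatic genes P2ry12 had the smallest p. It encodes the ADP receptor by which microglial processes sense injury. Its level in WT mice had a lowest value of 27.5, a median of 34.9 and a highest value of 41.5 CPM. The 4 KI-FL mice were at 26.4, 22.3, 21.3 and 24.7 CPM. All 4 were below every WT mouse. The KI-FL level was 0.687-fold that of WT (log2 fold change -0.54, SE 0.13, adjusted p = 0.0744 in edgeR, rank 119 of all genes). In DESeq2 it was -0.56 with an adjusted p of 0.0087. Without KI-FL replicate 4 the edgeR value was -0.56 (adjusted p = 0.145), and without both libraries that stood apart -0.57 (adjusted p = 0.0666).

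Levels of P2ry12 in the truncated lines were closer to WT. KI-96 mice were at 34.1, 27.9, 22.4 and 28.3 CPM, with the lowest in replicate 3, and their log2 fold change was -0.29 (SE 0.13, edgeR adjusted p = 0.653). KI-571 mice were at 29.2, 32.2, 27.1 and 40.2 CPM and overlapped with WT (log2 fold change -0.10, SE 0.13, edgeR adjusted p = 0.958). The direct test of KI-571 against KI-FL gave 0.44 (SE 0.15, edgeR adjusted p = 0.385), so P2ry12 was not shown to differ between these genotypes. P2ry12 shares 9 exonic bases with Med12l on the opposite strand, and the strand setting of the counting is not given in the sources used here.

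Tmem119, a membrane protein used to tell microglia from other macrophages, lay on the other side of WT in the same mice. WT ran from 17.3 to 32.9 CPM with a median of 26.4, and the 4 KI-FL mice were at 30.9, 40.2, 33.8 and 43.9 CPM. In KI-FL, 3 of the 4 mice were above all WT mice and 1 was inside the WT range. The log2 fold change was 0.53 (SE 0.17, edgeR adjusted p = 0.146, DESeq2 adjusted p = 0.0777). It depended on which WT mice were used. WT replicates 5 to 7, the most deeply sequenced WT libraries, were at 21.2, 23.5 and 17.3 CPM and WT replicates 1 to 4 at 28.1, 32.9, 26.4 and 31.2 CPM. Against WT replicates 1 to 4 alone the value was 0.32 (edgeR adjusted p = 0.635).

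The transcripts of P2ry12 and Tmem119 are nearly equal in length (2.20 and 2.24 kb), so that their CPM can be set side by side within a mouse. The ratio of P2ry12 to Tmem119 ran from 1.04 to 2.002 in WT, from 0.880 to 1.32 in KI-96 and from 0.954 to 1.45 in KI-571 mice. In KI-FL mice it was 0.852, 0.555, 0.630 and 0.564. No KI-FL ratio reached the WT range, while KI-96 and KI-571 overlapped with it. This ratio was chosen after the values of both genes were seen and is given without a test. Across all 19 mice log2 CPM of the 2 genes had r = -0.16 (permutation p = 0.527) and rho = -0.27 (permutation p = 0.266), and as deviations from genotype means r was 0.42 (permutation p = 0.0761).

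**Figure D3:**
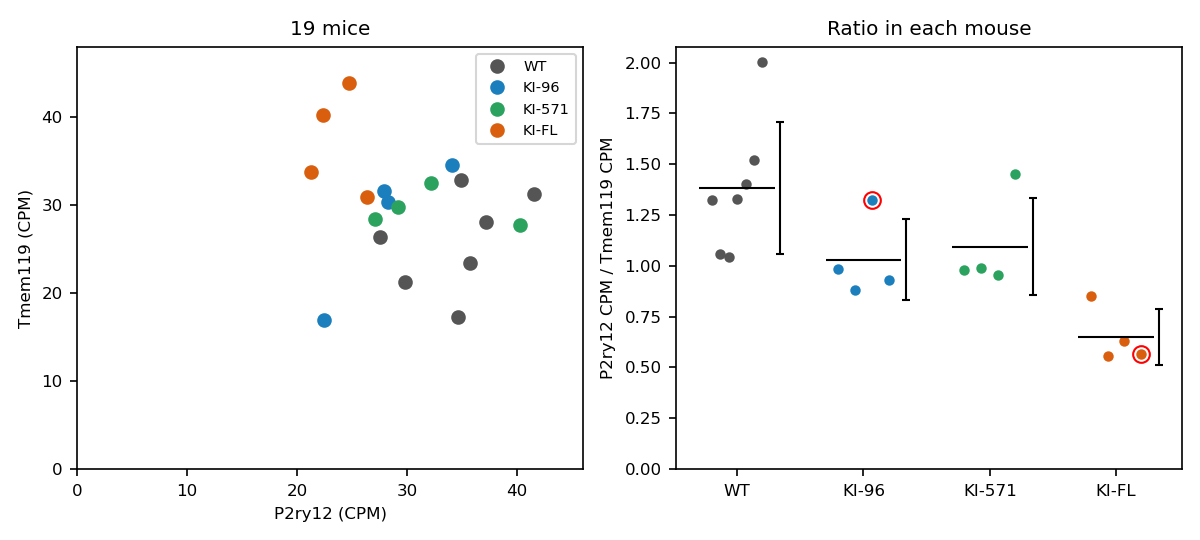
Left, Tmem119 against P2ry12 in 19 mice (both axes in CPM, coloured by genotype); right, their ratio in each mouse by genotype, with the mean as a line, the SD as a bar, and red rings on KI-96 replicate 3 and KI-FL replicate 4. The 4 KI-FL mice, at ratios of 0.555 to 0.852, lie below the lowest WT ratio of 1.04.

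The other homeostatic genes spread to both sides. Cx3cr1, the fractalkine receptor, was at 65.0, 61.1, 63.1 and 105 CPM in KI-FL mice and at 44.7 to 76.0 CPM in WT. Its log2 fold change of 0.31 (edgeR adjusted p = 0.290) was 0.08 without KI-FL replicate 4. Siglech, a sialic acid-binding lectin, was at 14.6, 10.5, 13.2 and 15.2 CPM in KI-FL and 14.5 to 19.9 in WT (log2 fold change -0.35, SE 0.14, edgeR adjusted p = 0.202). Csf1r overlapped between all genotypes, with means of 111 ± 11.2 CPM in WT (SD, n = 7), 114 ± 14.5 in KI-96, 111 ± 16.4 in KI-571 and 119 ± 16.1 in KI-FL (SD, n = 4 each). Its exons share 873 bases with Hmgxb3 on the opposite strand. Of the 11 homeostatic genes, 6 were above and 5 below WT in KI-96, 5 above and 6 below in KI-571, and 5 above and 6 below in KI-FL. Without both libraries that stood apart, 8 were above and 3 below in KI-96, and 4 above and 7 below in KI-FL.

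Most complement genes had small positive log2 fold changes: 8 of 9 in KI-96, 8 in KI-571 and 7 in KI-FL, in comparisons that share their WT mice. Against WT replicates 1 to 4 alone these counts were 5, 7 and 3 of 9, with a median of -0.01 in KI-FL, and with Xist as a covariate the count in KI-96 was 4. Xist stood in for sex, since the study used male and female mice, and no other sex term was fitted. With it the SE of C1qa was 0.34 in KI-96 and 0.23 in KI-571, and that of Itgb2 0.32 and 0.21. How sex was spread over the genotypes is not shown here. Over all knock-in mice the median was 0.13, and 0.02 against WT replicates 1 to 4 alone. In KI-571, 8 of the 9 had a positive log2 fold change, with a median of 0.17 against -0.01 over all genes tested, and 2 had an unadjusted p under 0.05. C3ar1, the receptor for the C3 fragment C3a, was at 2.98, 3.81, 3.94 and 3.28 CPM in KI-571 mice and 1.77 to 2.44 CPM in WT, with no overlap. Its counts were 61 to 72 in KI-571 and 30 to 64 in the WT libraries. The log2 fold change was 0.75 (SE 0.23, edgeR adjusted p = 0.273, DESeq2 adjusted p = 0.0699), and without both libraries that stood apart its adjusted p in edgeR was 0.0742. KI-96 mice (3.61, 2.16, 2.28 and 2.61 CPM) and KI-FL mice (2.12, 2.22, 2.07 and 1.31 CPM) overlapped with WT. The direct test of KI-571 against KI-FL gave 0.86 (SE 0.27, edgeR adjusted p = 0.339).

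Over all genes, the ranges of log2 CPM did not overlap with WT for 1.24% of genes in KI-96, 1.55% in KI-571 and 5.29% in KI-FL. Among the 38 members this held for 0 in KI-96, for 1 in KI-571 (C3ar1, higher) and for 1 in KI-FL (P2ry12, lower). A count of 1 is 2.63% of the 38 members, above the share of all genes in KI-571 and below it in KI-FL.

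C3, the central component of the cascade, was at 3.41, 2.44, 6.96 and 3.17 CPM in KI-571 mice and at 1.04 to 4.04 CPM in WT. Replicate 3 was the highest of all 19 mice and the other 3 lay inside the WT range (log2 fold change 0.78, SE 0.34, edgeR adjusted p = 0.581). The same mouse had the highest C4b, at 148 CPM against 51.8 to 88.1 in WT, and the highest Itgax, at 2.41 CPM against 0.153 to 1.07 in WT. Over all knock-in mice C3 was at a log2 fold change of 0.57 (SE 0.27, edgeR adjusted p = 0.387). In DESeq2 it was at 0.57 in KI-96 and 0.35 in KI-FL. Against WT replicates 1 to 4 alone the edgeR values were 1.01 in KI-96, 1.22 in KI-571 and 0.79 in KI-FL. Their adjusted p were 0.9998, 0.894 and 0.602. The highest WT value, 4.04 CPM, was that of WT replicate 6. Without KI-571 replicate 3 the log2 fold change of C3 in KI-571 was 0.37. Choroid plexus genes in that mouse were at a mean log2 CPM of 1.35, whereas KI-571 replicates 2 and 4 were at 6.50 and 6.70 and the WT mice at 1.09 to 3.57, and the part of ventricular tissue in these levels was not tested. C4b has a near-identical neighbour, C4a, and reads may be split between them. C4a itself was in KI-FL at a log2 fold change of -1.23 (SE 0.30, edgeR adjusted p = 0.0800), while C4b was at -0.17 (SE 0.19), and at -0.32 without KI-FL replicate 4.

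The 3 C1q chains lie next to each other on chromosome 4, in the GENCODE annotation of GRCm38 at chr4:136880129-136886187 (C1qb), chr4:136889804-136893065 (C1qc) and chr4:136895917-136898803 (C1qa), all on the minus strand. C1qa was at 46.8 to 62.7 CPM in WT, 52.2 to 66.5 in KI-571 and 47.3 to 77.1 in KI-FL mice. In KI-96 it was at 75.9, 63.4, 19.6 and 72.7 CPM. The 3 mice other than replicate 3 were above all WT mice, and the log2 fold change of 0.09 (SE 0.23) with that mouse became 0.37 (SE 0.12, edgeR adjusted p = 0.373) without both libraries that stood apart. The C1qa transcript is 1.04 kb, and the part of transcript length in these KI-96 levels was not tested. No chain passed in any genotype, with log2 fold changes of -0.01 to 0.22 over all mice. Without both libraries that stood apart, C1qb went from -0.01 to 0.25 and C1qc from 0.05 to 0.30 in KI-96 (edgeR adjusted p of 0.428 and 0.460), and in KI-FL C1qa went from 0.13 to -0.02 and C1qb from 0.04 to 0.18.

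Chain levels ran together from mouse to mouse. Without both libraries that stood apart (n = 17), log2 CPM of C1qb and C1qc had Pearson's r = 0.82 (permutation p = 9e-05) and Spearman's rho = 0.86 (p = 4e-05). C1qa and C1qc had r = 0.81 (p = 0.00011) and C1qa and C1qb r = 0.70 (p = 0.00233). Those 2 mice were also the ones farthest from the median of C1qa. In all 19 mice the values were 0.84, 0.94 and 0.76 (permutation p of 0.00114, 2e-05 and 0.0128, adjusted over the 5 pairs examined 0.00285, 0.0001 and 0.016). Leaving out KI-96 replicate 3 alone took C1qa and C1qb to 0.19 and C1qb and C1qc to 0.49, and KI-FL replicate 4 had high C1qa (77.1 CPM) beside low C1qb (33.1 CPM). The C1q pairs share the same 19 libraries. In the 7 WT mice alone r was 0.91 for C1qb and C1qc (permutation p = 0.00412, adjusted 0.0206), 0.89 for C1qa and C1qc (permutation p = 0.027, adjusted 0.0639) and 0.79 for C1qa and C1qb (permutation p = 0.0384, adjusted 0.0639), so that only the first passed after adjustment over the 5 pairs.

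**Figure D4:**
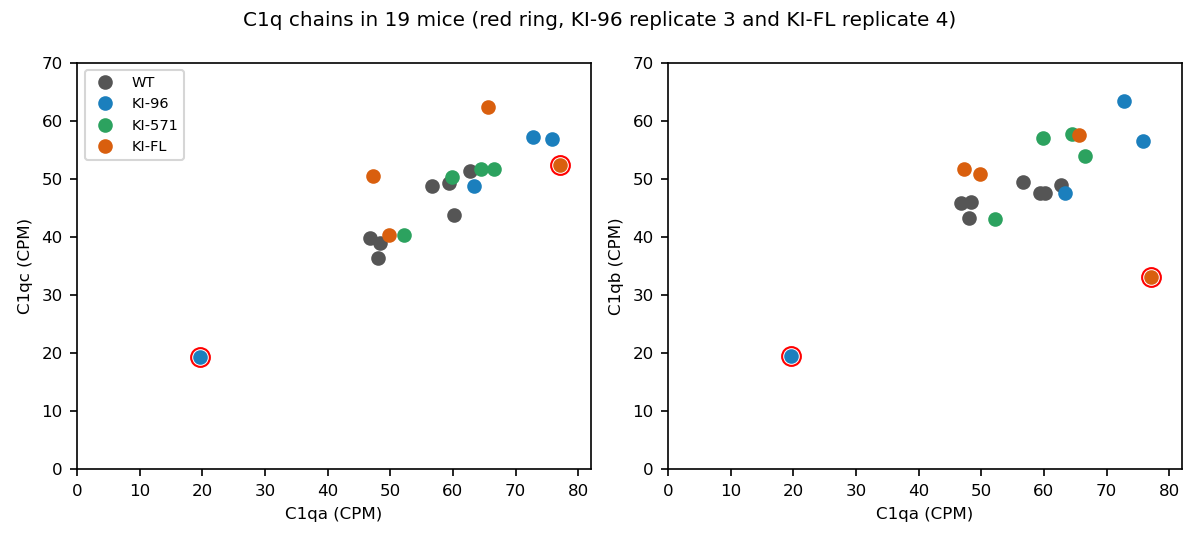
C1qc (left) and C1qb (right) against C1qa in 19 mice, all axes in CPM, coloured by genotype, with red rings on KI-96 replicate 3 and KI-FL replicate 4. Without the 2 ringed mice the pairs ran together at r = 0.81 (left) and 0.70 (right) on the log2 scale.

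The receptors that bind C3 products on microglia, Itgam and Itgb2, which form complement receptor 3, did not pass in any genotype. Itgam had log2 fold changes of 0.02, 0.01 and 0.01 and Itgb2 of 0.05, -0.01 and 0.06 in KI-96, in KI-571 and in KI-FL. Without KI-96 replicate 3 the KI-96 values were 0.13 and 0.23, and without KI-FL replicate 4 the KI-FL values were -0.08 and 0.05. Itgam shares 3450 exonic bases with Gm49368 on the same strand, so its counts are uncertain. C5ar1, the C5a receptor, was low, with 6 to 36 counts per mouse.

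Activated genes had their widest spread in KI-96 and KI-FL, where 1 mouse of each stood apart. Trem2, a lipid-sensing receptor, was at 16.4 ± 1.93 CPM in WT (SD, n = 7), 15.3 ± 6.46 in KI-96, 18.4 ± 1.88 in KI-571 and 16.9 ± 2.90 in KI-FL (SD, n = 4 each). The KI-96 mice were at 17.5, 17.9, 5.80 and 20.1 CPM, so that a single mouse set their spread. Tyrobp, the adaptor through which Trem2 signals, was at 13.1, 15.9, 1.63 and 16.1 CPM in KI-96 and at 9.98 to 12.8 CPM in WT. The 3 mice other than replicate 3 were above all WT mice. The part of transcript length in these KI-96 levels was not tested. Across all 19 mice Trem2 and Tyrobp had r = 0.90 (permutation p = 0.00351, adjusted 0.00585) and rho = 0.52 (p = 0.025). Without the 2 mice farthest from the median of Trem2, WT replicate 7 and KI-96 replicate 3, r was 0.37 (permutation p = 0.147). Without KI-96 replicate 3 alone r was also 0.37 (permutation p = 0.131) and rho 0.43 (p = 0.0734), so Pearson's r rested on that mouse. Without both libraries that stood apart rho was 0.52 (permutation p = 0.0339, adjusted 0.0423).

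**Figure D5:**
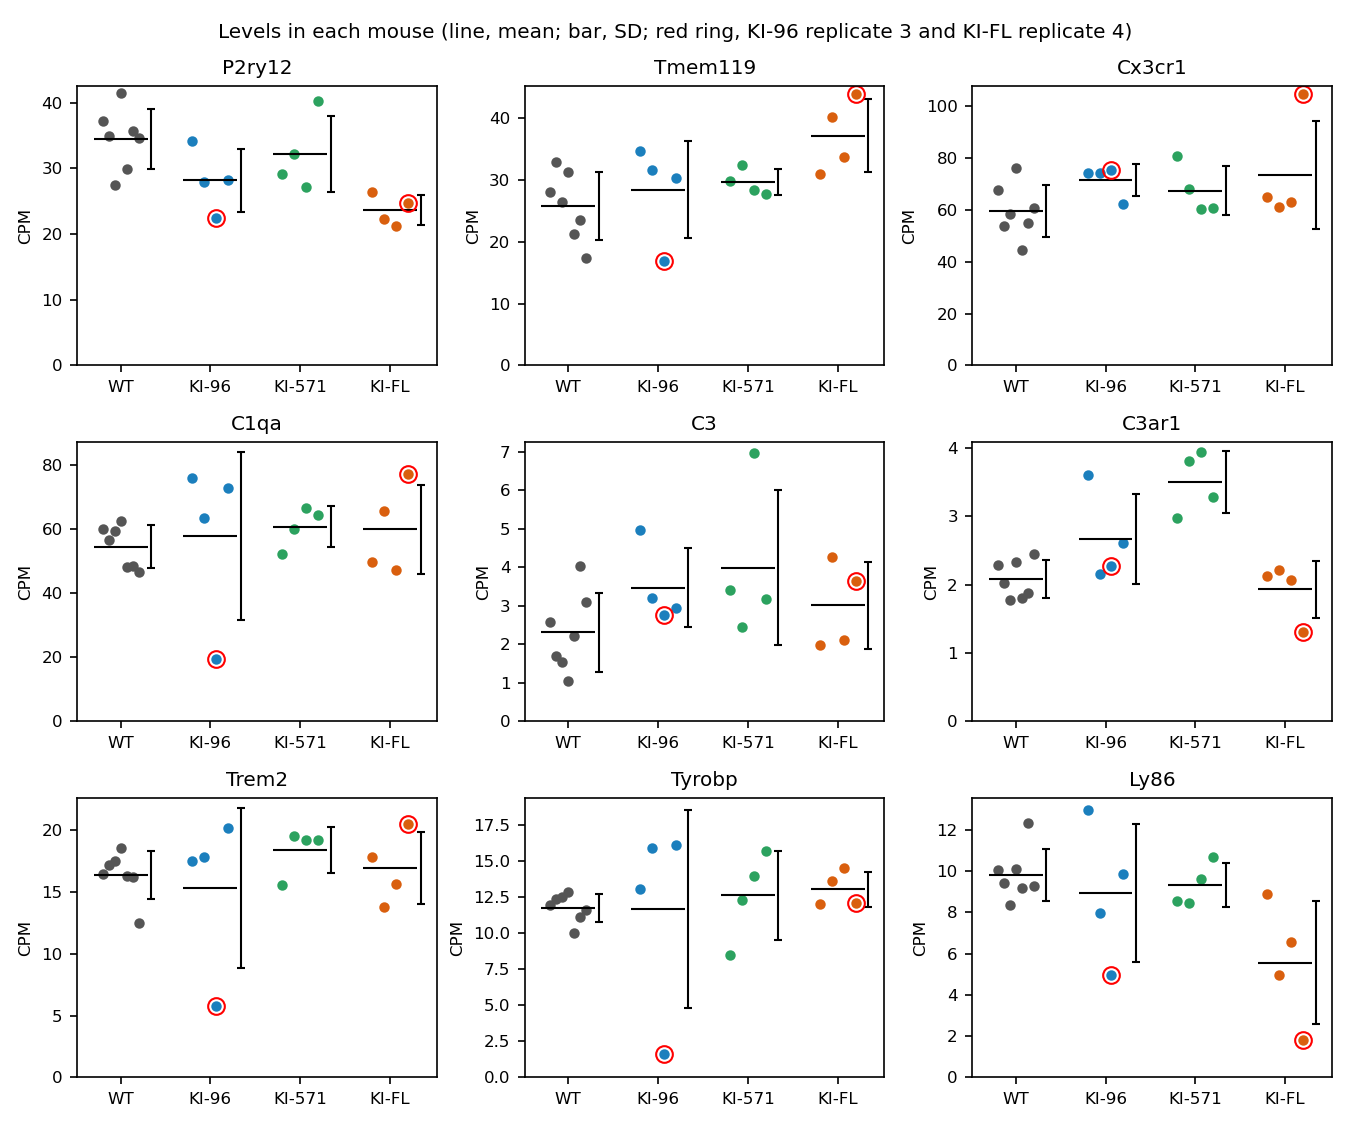
Levels of 9 members in each mouse (vertical axis, CPM from 0) by genotype, with the mean as a line and the SD as a bar, and red rings on KI-96 replicate 3 and KI-FL replicate 4. P2ry12 in KI-FL (21.3 to 26.4 CPM) lies below WT (27.5 to 41.5 CPM), C3ar1 in KI-571 (2.98 to 3.94 CPM) lies above WT (1.77 to 2.44 CPM), and Trem2, Tyrobp and C1qa have 1 low KI-96 mouse.

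Lysosomal members did not separate the genotypes. Ctsd was at 127, 164, 140 and 163 CPM in KI-571 and 114 to 133 CPM in WT, and 3 of the 4 were above all WT mice (log2 fold change 0.28, SE 0.14, edgeR adjusted p = 0.666). Cd68, a lysosomal glycoprotein of phagocytes, overlapped in all genotypes and had log2 fold changes of -0.09, 0.19 and 0.02 in KI-96, in KI-571 and in KI-FL. Both outer values rested on 1 mouse, being 0.10 in KI-96 without replicate 3 and 0.20 in KI-FL without replicate 4. Lyz2, lysozyme, was at 3.22, 8.87, 10.7 and 12.1 CPM in KI-571 against 4.96 to 8.25 in WT. In KI-FL it was at 6.17, 6.02, 4.55 and 0 CPM. Axl, a receptor for the phosphatidylserine bridge Gas6 that astrocytes and vessels express too, was at 42.1, 45.0, 49.6 and 34.9 CPM in KI-FL and 47.1 to 54.9 in WT. Its log2 fold change was -0.25 (SE 0.10, edgeR adjusted p = 0.200), and -0.16 without KI-FL replicate 4.

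Itgax and Cst7, integrin and inhibitor genes of the disease-associated state, were near the floor. Itgax, the integrin CD11c, had 4 to 20 counts in WT, 7 to 10 in KI-96, 5 to 44 in KI-571 and 0 to 12 in KI-FL libraries. Its log2 fold change in KI-FL was -1.47 (SE 0.71, edgeR adjusted p = 0.301). Cst7 had 3 to 7 counts in WT, 1 to 10 in KI-96, 2 to 9 in KI-571 and 0 to 8 in KI-FL, and a difference in it was not detectable at this depth. Spp1, osteopontin, which some neurons and oligodendrocytes also express, varied widely within WT, from 4.07 to 21.3 CPM. In DESeq2 its log2 fold change was -0.29 in KI-96, -0.65 in KI-571 and -0.68 in KI-FL (adjusted p of 0.905, 0.750 and 0.380). Against WT replicates 1 to 4 alone edgeR gave 0.02, -0.34 and -0.36 in the same order.

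General myeloid genes also went both ways. Laptm5, a lysosomal membrane protein of blood-lineage cells, had positive log2 fold changes of 0.25 (SE 0.14), 0.35 (SE 0.14) and 0.35 (SE 0.14) in KI-96, in KI-571 and in KI-FL. Without KI-FL replicate 4 the KI-FL value was 0.18 (edgeR adjusted p = 0.580), and without KI-96 replicate 3 the KI-96 value was 0.37. The 3 comparisons share their WT mice. In the pooled comparison the value was 0.32 (SE 0.11, edgeR adjusted p = 0.231). Ly86, the partner of the receptor RP105, was at 8.90, 4.99, 6.57 and 1.83 CPM in KI-FL mice and at 8.38 to 12.3 in WT (log2 fold change -0.81, SE 0.28, edgeR adjusted p = 0.164). It was -0.52 without KI-FL replicate 4. Mpeg1, the pore-forming protein perforin-2, had 0.29 (SE 0.16), 0.21 (SE 0.16) and 0.01 (SE 0.17) in the same order, and 0.06 in KI-FL without replicate 4. Aif1, which encodes the microglial stain Iba1, had means of 5.69 ± 0.736 CPM in WT (SD, n = 7), 4.85 ± 1.65 in KI-96, 6.42 ± 1.14 in KI-571 and 4.25 ± 1.77 in KI-FL (SD, n = 4 each).

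The second question was whether homeostatic and activated genes moved apart. The median log2 fold change of the homeostatic genes was 0.04 in KI-96, -0.00 in KI-571 and -0.13 in KI-FL. That of the 9 activated genes was -0.09, 0.17 and -0.25, that of complement genes 0.05, 0.17 and 0.06, and that of general myeloid genes 0.10, 0.15 and -0.01. Over all genes tested the medians were -0.02, -0.01 and -0.03. Without both libraries that stood apart, the medians of activated genes were 0.06 in KI-96 and -0.06 in KI-FL, and that of complement genes in KI-96 was 0.30. In KI-571, activated genes were above WT in 8 of 9 cases, the exception being Spp1, and none had an unadjusted p under 0.05.

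The mean log2 CPM of homeostatic genes minus that of activated genes was 1.28 ± 0.124 in WT (SD, n = 7), 1.54 ± 0.357 in KI-96, 1.22 ± 0.402 in KI-571 and 1.77 ± 0.805 in KI-FL (SD, n = 4 each). The highest values were 2.97 in the KI-FL mouse and 2.05 in the KI-96 mouse that stood apart. Without them KI-96 was at 1.37 ± 0.132 and KI-FL at 1.37 ± 0.134 (SD, n = 3 each), and both means lay inside the WT range of 1.11 to 1.44. In KI-571 the 4 mice ran from 0.810 to 1.77 and the SD exceeded that of WT. Each knock-in mean lay within 1 SD of its own genotype from the WT mean, with all mice as well as without those 2.

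Comparisons between knock-in genotypes gave 0 of 38 members in edgeR at an adjusted p under 0.05: in KI-96 against KI-FL (0.0% of all genes passed), KI-571 against KI-FL (0.0864%) and KI-96 against KI-571 (0.0054%). DESeq2 also called 0 in each. At an unadjusted p under 0.05 edgeR gave 1 member, Ly86, in KI-96 against KI-FL (8.9% of all genes), and 1, Ctsd, in KI-96 against KI-571 (5.51% of all genes). KI-571 against KI-FL gave 7 (18.4% of 38, against 8.9% of all genes). It gave 6 without KI-FL replicate 4 and 8 without both libraries that stood apart. The share of all genes in those smaller fits is not given here, so the 6 and the 8 cannot be set against a background. The 7 found with all mice were all higher in KI-571: C3ar1, P2ry12, Axl, Itgax, Ly86, C4b and Fcrls.

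Genes around the members were read from lists of the same pathways. Of all genes tested in edgeR, 7.45% in KI-96, 7.72% in KI-571 and 16.7% in KI-FL had an unadjusted p under 0.05. Of 37 other complement pathway genes tested, 0 passed in edgeR in KI-96, KI-571 or KI-FL, and 0, 5 and 4 had an unadjusted p under 0.05. Of 47 other microglial genes 0 passed in each, and 3, 2 and 3 had an unadjusted p under 0.05. Slco2b1, a transporter, had the smallest p of that list in KI-571, at a log2 fold change of 0.38 (SE 0.10, edgeR adjusted p = 0.207), and Cd33, an inhibitory lectin, the smallest in KI-FL, at -0.51 (SE 0.16, edgeR adjusted p = 0.146). Of 17 other activation genes 0 passed, and the smallest p in KI-571 was that of Ctsz, the lysosomal protease cathepsin Z, at 0.45 (SE 0.13, edgeR adjusted p = 0.248). Among 10 ligands of microglial receptors 0 passed. In KI-FL the neuronal ligand Cd200 was at 0.33 (SE 0.11, edgeR adjusted p = 0.145) and Il34, the Csf1r ligand of forebrain neurons, at 0.39 (SE 0.13, edgeR adjusted p = 0.148).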

How the data were processed

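RNA-seq libraries of mouse striatum were analysed from the gene counts deposited by the authors, which are whole-number read counts per gene. To make them, the authors removed adapter sequence (BBduk), dropped reads left short, mapped the rest to GRCm38 (STAR) and counted per gene (HTSeq). Their own tests had a batch term and left out 1 WT mouse, and which mice these concern, like the strand setting, is not given in the sources used here. In addition, 4 table columns that match no sample label were not used, and the counter's summary lines (20.8% to 32.8% of the reads in each library) were left out of library sizes. Genes were named with GENCODE vM21.

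In edgeR 4.0.16 (R 4.3.3), genes were filtered by filterByExpr (minimum count 10, minimum total 15), which left 18521, scaled by TMM and fitted over all 19 mice with a quasi-likelihood model of genotype, and p-values were adjusted by Benjamini-Hochberg over all genes. DESeq2 1.42.0 was the main alternative. CPM used TMM library sizes and log2 CPM a prior count of 2. Correlations were tested by 100000 two-sided permutations. Scripts were tested on simulated data. The labels do not tie mice to litters or batches, so p-values measure the spread between these mice. The members and lists were chosen with earlier results of these data known. Named genes were those that passed, the 5 members with the smallest p in each comparison with WT, and 17 members listed by role; genes outside this rule were named after their values were seen. Of 24 same-numbered pairs of mice, 5 had correlated deviations over 0.1, and the range was -0.13 to 0.29. Pairs with different numbers were not computed, so whether replicate numbers pair the mice cannot be told.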

Additional observations from a re-analysis of the deposited data

Results flagged for a closer look

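Among 112 groups of values, each the log2 CPM of a named gene or the score of a gene group in 1 genotype, 17 had a mouse far from the others by Dixon's ratio. Chance gives about 1 in 20, or 6 here. A score is the mean log2 CPM over a group's genes. KI-96 replicate 3 accounted for 7 of the 17 and KI-FL replicate 4 for 5, the libraries described above as standing apart.

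KI-96 replicate 3 was low for C1qa (log2 CPM 4.30, other KI-96 mice 5.99 to 6.25), C1qc (4.27), Trem2 (2.56), Tyrobp (0.79) and Ctsd (6.05). Its complement score of 2.84 and its activated score of 2.39 were also low for KI-96. In the same genotype, replicate 4 had a low Cx3cr1 of 5.96.

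KI-FL replicate 4 was high for Cx3cr1 (6.71, other KI-FL mice 5.94 to 6.02) and low for Cd68 (2.84), Lyz2 (-3.25, where its count was 0) and C3ar1 (0.50). Its difference of homeostatic minus activated genes was 2.97. The part of its low number of detected genes in these values was not tested.

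In KI-571, replicate 1 was low for C1qc (5.34) and Trem2 (3.97). In WT, replicate 7 was low for Trem2 (3.65) and Itgax (-1.95, from 4 counts).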

How the results depend on the processing

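Of the counts of members called, 204 stayed within the limits set and 5 moved, all in KI-FL against WT, where 1 member (P2ry12) passed with an adjusted p limit of 0.1, with DESeq2, with only the groups compared in the fit, without WT replicate 3 and without KI-96 replicate 3. Leaving out 1 mouse at a time gave 0 to 1. The share of all genes called in these settings is not given here, so the call of P2ry12 cannot be set against a background. P2ry12 in KI-FL stayed between -0.61 and -0.50 (log2) under every alternative, with adjusted p from 0.0087 to 0.428. Of the group medians 440 stayed and 20 moved. Against WT replicates 1 to 4 alone, that of general myeloid genes was -0.055 in KI-96, -0.021 in KI-571 and -0.19 in KI-FL, and that of complement genes in all knock-in mice 0.024. A replicate block in the model gave -0.064, -0.010, -0.17 and 0.017 for the same medians and changed no call of a member. Only 4 WT mice share numbers with the knock-in mice, and whether the numbers pair the mice cannot be told. Xist as a covariate took complement genes in KI-96 to -0.055, and 1 surrogate variable took activated genes to 0.20 in KI-FL and 0.13 in all knock-in mice. Leaving out 1 mouse at a time, complement genes ranged from 0.0042 to 0.16 in KI-FL and from -0.071 (without KI-96 replicate 1) to 0.30 (without KI-96 replicate 3) in KI-96, and activated genes from -0.22 to 0.063 in KI-96, from -0.27 to -0.054 in KI-FL and from -0.092 upward in all knock-in mice. Leaving out KI-96 replicate 3 and KI-FL replicate 4 together, an alternative chosen after seeing the data like the others on those mice below, gave 0.30 for complement and 0.063 for activated genes in KI-96, and -0.059 in KI-FL and 0.095 in all knock-in mice for activated genes.

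The correlation of P2ry12 and Tmem119 turned from -0.16 to 0.42 as deviations from genotype means. Pearson's r of Trem2 and Tyrobp no longer passed without the 2 farthest mice (0.37), without KI-96 replicate 3 (0.37) or without both mice that stood apart (0.42). With 1 mouse left out it ran from 0.37 to 0.91. Their rho still passed without both mice that stood apart (0.52, permutation p = 0.0339, adjusted 0.0423). Without KI-96 replicate 3, Pearson's r of neither C1qa and C1qb (0.19, against 0.93 without KI-FL replicate 4) nor C1qb and C1qc (0.49, against 0.94) passed after adjustment. The rho of C1qb and C1qc did (0.66, permutation p = 0.00354, adjusted 0.00885). The other 24 values kept direction and call. The causes of these changes were not tested. With 0 to 10 counts for Cst7 and 0 to 44 for Itgax, depth limits both genes.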
